A study of Homo sapiens with 6 samples.

Results

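The mRNAs described here carried PAR-CLIP sites of AEG-1 but no HITS-CLIP site of the same protein. The members are the PAR-CLIP AEG1 sites under 300 nt wide that lie on transcripts with no row in either HITS-CLIP AEG1 site list. They number 36921 of the 60085 PAR-CLIP AEG1 sites (61.4%) and of the 72385 sites of all 6 libraries, and they lie on 5955 transcripts. A further 21753 PAR-CLIP AEG1 sites under 300 nt lie on 2022 transcripts that do have HITS-CLIP AEG1 rows, and these serve for comparison. The members were chosen from measured values (site width, and the presence of a transcript in either method), so their absence from HITS-CLIP is a description and was not tested.

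AEG-1, the product of MTDH, is a protein of the endoplasmic reticulum (ER) membrane with RNA-binding activity. mRNAs of secreted and membrane proteins are translated largely at the ER, whereas mRNAs of cytosolic and nuclear proteins are translated mainly on free ribosomes, although ribosomes at the ER also translate some of them. CLIP methods bond RNA to protein with UV light, recover the protein with an antibody and sequence the RNA fragments that remain attached. HITS-CLIP and PAR-CLIP use different wavelengths and favour different crosslinks.

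All 6 libraries, controls included, came from AEG-1-14, a hepatoblastoma line on the HepG3 background (the name as labelled) in which C-terminally HA-tagged AEG1 is stably produced. The groups were PAR-CLIP AEG1 (1 library, 365 nm light), HITS-CLIP AEG1 (2 libraries, 254 nm light), a PAR-CLIP negative control (1 library) and HITS-CLIP negative controls (2 libraries), the controls being precipitated with the same anti-HA antibody without UV. The HITS-CLIP AEG1 lists held 6378 and 5651 sites, the PAR-CLIP control 121 and the HITS-CLIP controls 60 and 90. Read counts were not part of the lists, which leaves the depth of each library unknown. The labels do not state that the paired HITS-CLIP libraries were separate cultures, so they may be technical replicates. Of 14 hepatocyte and hepatoblastoma markers, 13 had a PAR-CLIP AEG1 site, DLK1 being the exception, and 12 had a HITS-CLIP AEG1 row, as did 2 of 5 leukocyte markers (CD14 and LYZ, in both methods), whereas no endothelial, fibroblast or erythroid marker had a site in either. HNF4A, a transcription factor that defines hepatocytes, was the hepatocyte marker among the members, with 10 sites, and the keratinocyte marker KRT5 was another member, with 1 site of 22 nt.

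Most transcripts without HITS-CLIP rows carried a few narrow sites. The members had a median width of 69 nt (quartiles 53 and 94 nt), against 78 nt (57 and 118 nt) for the PAR-CLIP sites on transcripts with HITS-CLIP rows. A width of 51 to 100 nt was held by 58.2% of the members and 48.7% of the comparison sites. A width of 201 to 299 nt was held by 1.96% and 6.45%. The median transcript carried 4 members (quartiles 2 and 8), against 8 (4 and 14) for transcripts with HITS-CLIP rows. A single site was all that 1129 member transcripts (19%) carried, against 155 (7.67%) of the others, and 2825 (47.4%) and 1458 (72.1%) carried at least 5. The PAR-CLIP AEG1 sites covered a median of 309 nt of a member transcript and 1001.5 nt of a transcript with HITS-CLIP rows. Coverage and the HITS-CLIP absence that chose the members therefore moved together, and the part of coverage in the results that follow is shown by bands of covered length. With 1 PAR-CLIP AEG1 library, none of the differences between the sets of transcripts could be tested over samples.

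**Figure D1:**
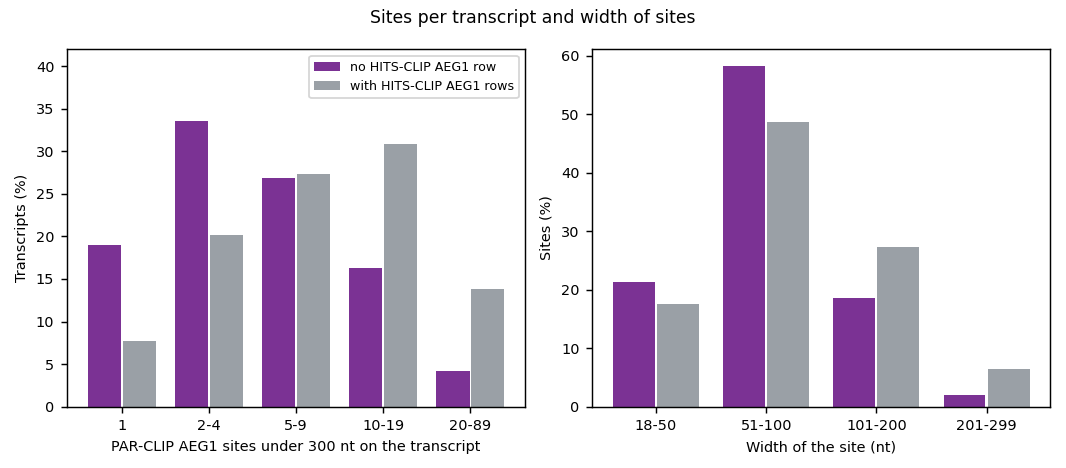
Left, percent of transcripts (y) by the number of PAR-CLIP AEG1 sites under 300 nt they carried (x), and right, percent of sites (y) by width in nt (x), for transcripts without (purple) and with (grey) HITS-CLIP AEG1 rows. Transcripts without HITS-CLIP rows more often carry 1 site (19% against 7.67%), and their sites are more often 51 to 100 nt wide (58.2% against 48.7%).

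At the limits of the rule, 30 members were 290 to 299 nt wide with a median score of 8.37, and 18 sites of 300 to 309 nt on transcripts without HITS-CLIP rows fell just outside with a median score of 8.01. The score is the authors' own, and its values behave as log2 values with a normalization that is not stated and may differ between transcripts. Scores are therefore compared within a transcript only, where a difference of 1 would stand for a doubling. The median scores above pool different transcripts, and no difference is drawn between them. Sites of 300 nt or more numbered 204 on 168 member transcripts (2.82%), against 1169 on 664 transcripts (32.8%) with HITS-CLIP rows. On the HITS-CLIP side, 708 transcripts fell just outside the rule with 1 HITS-CLIP AEG1 row over both libraries; they carried a median of 7.5 PAR-CLIP sites under 300 nt and 716 covered nt.

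The transcripts with most members encode mostly large cytosolic and nuclear proteins. Their sites were spread along the measured length, which ends at the furthest site by construction, with long gaps on some. MACF1, a linker of actin and microtubules, carried 62 members between nt 357 and 17259 of its transcript. TRRAP, a scaffold of histone acetyltransferase complexes, carried 60, and CNOT1, the scaffold of the CCR4-NOT deadenylase, 55. Each of the 20 leading transcripts had 0 rows in both HITS-CLIP AEG1 libraries, as the rule requires, and 0 in the PAR-CLIP control and in both HITS-CLIP controls. The 20 together held 909 members.

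Sites differed in density from transcript to transcript. On NUP205, a scaffold nucleoporin, 39 members left a median gap of 23.5 nt and PAR-CLIP AEG1 sites covered 77.0% of the length up to the furthest site. On LPP, a LIM protein of focal adhesions, 46 members left a median gap of 159 nt and 19% was covered, the extremes among the 20. MACF1 had a median gap of 135 nt with 29.1% covered, and CNOT1 a median gap of 50 nt with 57.7% covered. The largest gap on a transcript ranged from 178 nt on CNOT1 to 2541 nt on TRIP12, and was 1824 nt on LPP. The median width of a site stayed between 63 and 101 nt on all 20.

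The highest-scoring site of these transcripts lay near the 5′ end in some and near the 3′ end in others. On MACF1 it lay at nt 15167 to 15352, with a score of 8.12 against 5.04 for the lowest member of the transcript. On TRRAP it lay at nt 1545 to 1661, tied with the site at nt 2242 to 2406, with 10.38 against 7.13. On MBNL3, an RNA-binding protein of the muscleblind family with 52 members, it lay at nt 632 to 764, with 5.73 against 1.94. These transcripts thus differ in which end holds the highest score. On BLTP2, which encodes a bridge-like lipid transfer protein and has 48 members, the site at nt 453 to 637 stood 3.89 log2 units above the lowest. On RANBP2, the nucleoporin of the cytoplasmic filaments with 45 members, the highest lay at nt 8451 to 8618, 0.865 of the way to the furthest site. On USP9X, a deubiquitinase with 41 members, the highest was the first of all, at nt 437 to 600. Over the 20 transcripts the highest and lowest members were 2.41 to 4.25 log2 units apart. Where scores tied, the 5′-most site was taken as the highest, here and below.

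**Figure D2:**
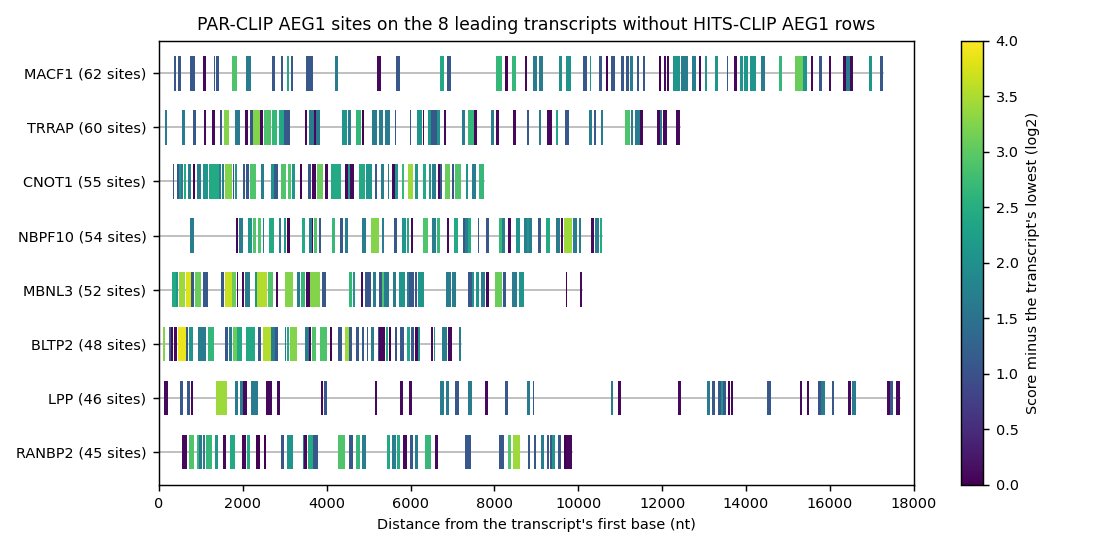
Members on the 8 transcripts that carried most of them, drawn by distance from the transcript's first base in nt (x), with each bar as wide as its site, a grey line up to the furthest site, and colour, on a scale of 0 to 4, for the score minus the lowest score of the transcript (log2). Sites are spread along the drawn length of each transcript, which ends at the furthest site by construction. They are closely spaced on CNOT1 (median gap 50 nt) and sparse on LPP (159 nt).

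The other transcripts of this leading group are TLN1, or talin, which ties integrins to actin (43 members), the RNA-binding protein NUFIP2 (42), the H3K36 methyltransferase NSD2 (41), the ubiquitin ligase TRIP12 (41), HTT, or huntingtin (41), the myosin MYO18A (40), the zinc finger protein ZBTB38 (39), LARP1, which binds mRNAs of the translation machinery (39), and DIP2B (39). NBPF10 and NBPF14, with 54 and 42 members, are members of a gene family with nearly identical copies, so the copy of origin is uncertain.

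The largest contrasts of score within a transcript lay on other mRNAs, where 1 broad member scored far above the lowest. MAL2, a membrane protein of apical transport, had its highest site at nt 163 to 453, with a score of 10.97 against 5.45 for the lowest, the widest score span among the members at 5.52. On CDK1, the kinase that drives mitosis, 9 members spanned 6.92 to 12.14, with the highest at nt 896 to 1190. On HMGN1, a nucleosome-binding protein, 6 members spanned 3.19 to 8.32. On PSMB2, a proteasome subunit, 8 members spanned 3.34 to 8.47. The highest sites of the 10 transcripts with the widest spans were all over 200 nt wide, and the others of this group were HDGF, SEL1L3, RAB5IF, SLC30A7, PRELID1 and ORC4, with spans of 5.08 to 5.51. On ORC4, of the origin recognition complex, the first of 11 members began at nt 4606 of a length of 6077 nt.

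By gene class, mRNAs of the secretory pathway were less often without HITS-CLIP rows than all transcripts, whereas most of the member transcripts fit no class. Of 7977 transcripts with a PAR-CLIP AEG1 site under 300 nt, 74.7% lacked a HITS-CLIP row (exact binomial 95% interval 73.7 to 75.6, counting error only, as for all intervals), and the class shares are given beside this value. The share was 77.6% (1021 of 1316) over the 25 nuclear and cytosolic classes and 82.4% (178 of 216) over the 4 mitochondrial classes. It was 39.2% (271 of 692) over the 13 endomembrane classes. The nuclear and cytosolic share was therefore close to that of all transcripts, and the endomembrane share stood 35.5 to 42.9% by its interval, below it. Of the 25 nuclear and cytosolic classes 18 exceeded the overall share, as did 3 of 4 mitochondrial classes and 0 of 13 endomembrane classes. The whole interval lay above the overall share for 7 of the 25, 1 of the 4 and 0 of the 13, and below it for 2, 0 and 11 of them. The overall share is not matched for coverage. The classes above it by the whole interval had class medians of 87 (ZNF) to 418 (small GTPases) covered nt, against 419 over all transcripts. Of all transcripts with 201 to 400 covered nt, 86.5% lacked HITS-CLIP rows, and of those with 401 to 800 nt, 77.3% did. The classes hold 1471 member transcripts (24.7%) and 10508 members; the remaining 4484 member transcripts (75.3%) fit none of the 42 classes. These lists were drawn up with earlier results of these data known, and the absence from HITS-CLIP is what the rule used, so the shares describe the members and support nothing further.

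**Figure D3:**
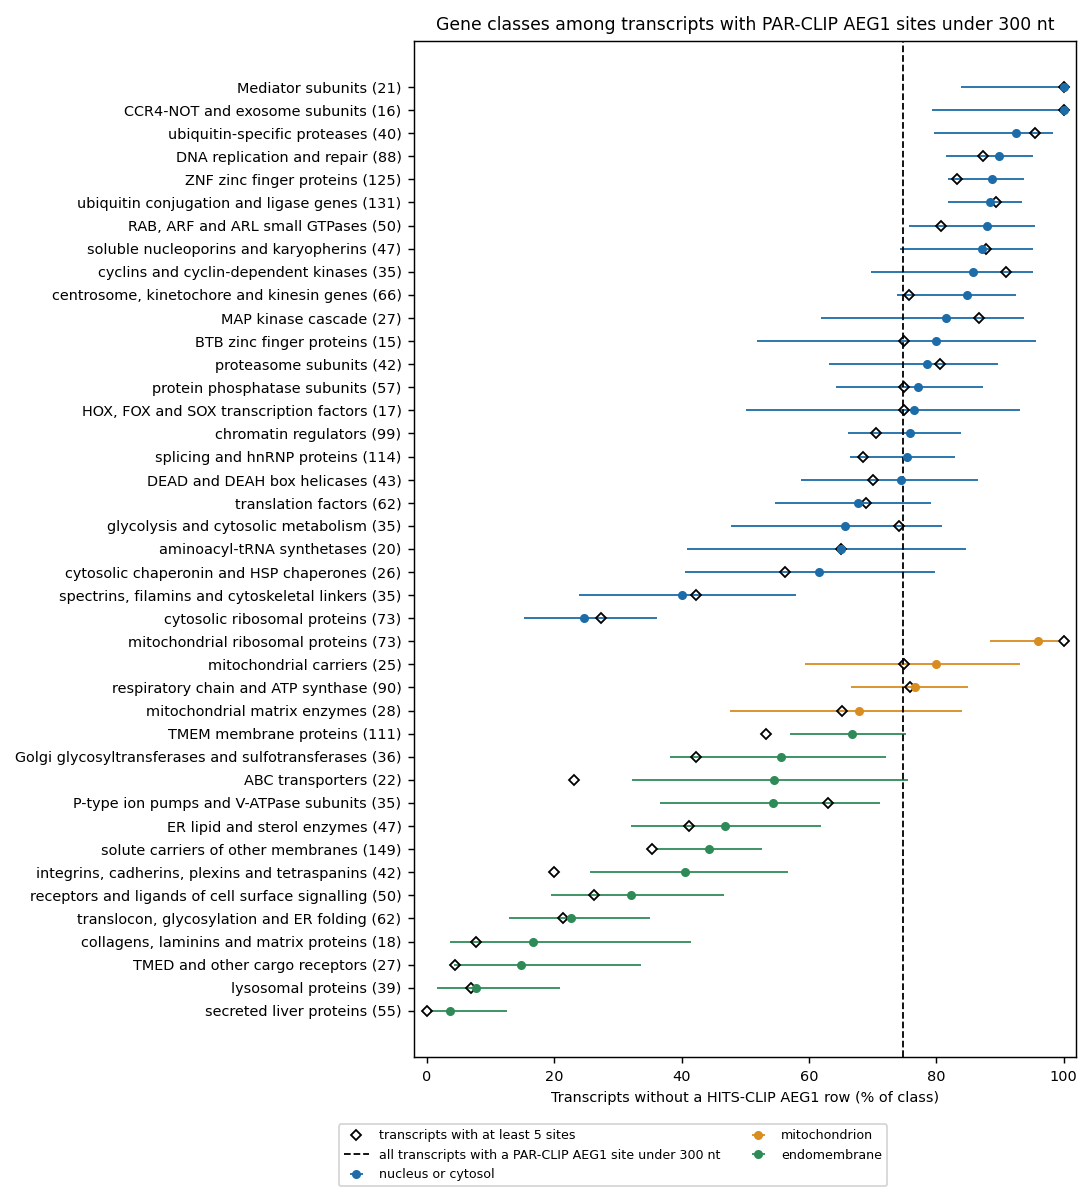
Percent of the transcripts of each class that lacked a HITS-CLIP AEG1 row (x), among transcripts with a PAR-CLIP AEG1 site under 300 nt (number in parentheses), as filled points with exact binomial 95% intervals, and among those with at least 5 such sites as open diamonds. The dashed line marks the 74.7% of all transcripts; most nuclear and cytosolic classes lie to its right and 13 of 13 endomembrane classes to its left, and 1 of the 42 classes is not drawn.

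The Mediator and the CCR4-NOT and exosome classes stood highest. Their class medians of 305 and 307 covered nt fell in a band (201 to 400 nt) where 86.5% of all transcripts lacked HITS-CLIP rows. All 21 Mediator subunits with PAR-CLIP sites, parts of the bridge between transcription factors and RNA polymerase II, lacked HITS-CLIP rows (100%, interval 83.9 to 100), led by MED13 with 38 members, MED13L with 22 and MED23 with 16. All 16 CCR4-NOT and exosome subunits did too (100%, 79.4 to 100), with CNOT11 at 11 and EXOSC10 at 10 after CNOT1. The highest MED13 site, at nt 9824 to 9892, was the last on the transcript.

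Of the DNA-binding and chromatin classes, the ZNF class had its interval above the share of all transcripts. ZNF zinc finger proteins, mostly DNA-binding repressors, had 111 of 125 transcripts without HITS-CLIP rows (88.8%, 81.9 to 93.7), but a median of 1 member each, and a median of 87 covered nt over the class, in a range of coverage (up to 100 nt) where 90.8% of all transcripts lacked HITS-CLIP rows. ZKSCAN1, with 37 members, ZNF638 with 24 and ZNF106 with 21 were far above the rest. The median start of the 343 members of the class lay at nt 2249, against nt 1365 over all members. Chromatin regulators, with 75 of 99 (75.8%, 66.1 to 83.8), were close to all transcripts, and TRRAP, NSD2 and the remodeller SRCAP, with 37 members, led them. BTB zinc finger proteins, with 12 of 15 (interval 51.9 to 95.7), and HOX, FOX and SOX factors, with 13 of 17 (76.5%, 50.1 to 93.2), had intervals that include the share of all transcripts, and FOXK1 carried 26 members, FOXM1, an activator of mitotic genes, 15 and FOXO3 14.

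Of the genome maintenance and cell cycle classes, DNA replication and repair had its interval above the share of all transcripts, and the intervals of the other two include it. The class median for replication and repair was 384 covered nt, in a band (201 to 400 nt) where 86.5% of all transcripts lacked HITS-CLIP rows. With at least 5 PAR-CLIP sites, 48 of 55 transcripts of that class (87.3%) lacked them, against 66.0% of all transcripts. DNA replication and repair had 79 of 88 (89.8%, 81.5 to 95.2), with TOP2A, the topoisomerase that untangles DNA before mitosis, at 32 members, the mismatch repair protein MSH6 at 25 and PARP1 at 22. Cyclins and cyclin-dependent kinases had 30 of 35 (85.7%, 69.7 to 95.2), led by CDK12 with 21, and centrosome, kinetochore and kinesin genes 56 of 66 (84.8%, 73.9 to 92.5), with CENPF at 35 and the motors KIF3B at 34 and KIF5B at 25.

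In the ubiquitin system the intervals of proteases and of conjugation and ligase genes lay above the share of all transcripts, and that of the proteasome includes it. The class medians of the first 2 were 296 and 377 covered nt, in a band (201 to 400 nt) where 86.5% of all transcripts lacked HITS-CLIP rows. With at least 5 PAR-CLIP sites, 59 of 66 conjugation and ligase transcripts (89.4%) lacked them, against 66.0% of all transcripts. Ubiquitin-specific proteases had 37 of 40 (92.5%, 79.6 to 98.4), with USP34 at 36 and USP22 at 28 members after USP9X. Ubiquitin conjugation and ligase genes had 116 of 131 (88.5%, 81.8 to 93.4), among them BIRC6 at 34 and UBE4A at 33. Proteasome subunits had 33 of 42 (78.6%, 63.2 to 89.7), with PSME4 at 26 and PSMD1 at 18.

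Among signalling and transport regulators of the cytosol, the small GTPases stood above the share of all transcripts, and the intervals of the other classes include it. RAB, ARF and ARL small GTPases, switches of vesicle traffic, had 44 of 50 (88.0%, 75.7 to 95.5), with RAB3D at 16 members and ARF3 and RAB10 at 15 each. Their class median was 418 covered nt, in a band (401 to 800 nt) where 77.3% of all transcripts lacked HITS-CLIP rows, a share inside their interval. With at least 5 PAR-CLIP sites, 21 of 26 (80.8%, 60.6 to 93.4) lacked them, against 66.0% of all transcripts. Soluble nucleoporins and karyopherins had 41 of 47 (87.2%, 74.3 to 95.2) and carried a median of 16 members, more than most classes, with the import receptor TNPO1 at 38 after RANBP2 and NUP205. Their class median was 1355 covered nt, in a band (801 to 1600 nt) where 58.3% of all transcripts lacked HITS-CLIP rows, below their interval. With at least 5 PAR-CLIP sites, 36 of 41 (87.8%, 73.8 to 95.9) lacked them, against 66.0% of all transcripts. The MAP kinase cascade had 22 of 27 (81.5%, 61.9 to 93.7), led by MAP4K4 with 26, and protein phosphatase subunits 44 of 57 (77.2%, 64.2 to 87.3), led by DUSP16 with 15.

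RNA processing and translation classes lay near or below the share of all transcripts. Splicing and hnRNP proteins had 86 of 114 (75.4%, 66.5 to 83.0), where PRPF8, a core protein of the spliceosome, carried 26 members. PAR-CLIP AEG1 sites of any width covered 6372 nt of the PRPF8 transcript. DEAD and DEAH box helicases had 32 of 43 (74.4%), with the nucleolar DDX21 at 28. Translation factors had 42 of 62 (67.7%, 54.7 to 79.1), with EIF4EBP2, an inhibitor of cap-dependent initiation, at 25 and the release factor ETF1 at 21. Aminoacyl-tRNA synthetases had 13 of 20 (65.0%), with EPRS1 at 32 and IARS1 at 22, and each of the 20 transcripts carried at least 5 PAR-CLIP sites. The cytosolic chaperones had 16 of 26 (61.5%), with HSPH1 at 20 and HSPA4 at 18, and glycolysis and cytosolic metabolism 23 of 35 (65.7%), with ACACA, which makes malonyl-CoA, at 37 and CAD, of pyrimidine synthesis, at 36.

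Of the nuclear and cytosolic classes, the ribosomal proteins and the cytoskeletal linkers had the lowest shares of transcripts without HITS-CLIP rows. Only 18 of 73 ribosomal protein transcripts (24.7%, 15.3 to 36.1) lacked HITS-CLIP rows, and RPL22 led them with 9 members, while RPL12 and RPLP0 carried 5 each. Among spectrins, filamins and cytoskeletal linkers 14 of 35 did (40.0%, 23.9 to 57.9), but with a median of 19.5 members, after MACF1 and TLN1 with UTRN, or utrophin, at 36. The linkers had a class median of 2369 covered nt, in a band (1601 to 3200 nt) where 37.4% of all transcripts lacked HITS-CLIP rows. The ribosomal proteins had a class median of 500 covered nt, in a band (401 to 800 nt) where 77.3% did.

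Among mRNAs of mitochondrial proteins, imported after synthesis in the cytosol, the mitochondrial ribosomal proteins had the highest share with 70 of 73 (95.9%, 88.5 to 99.1), a median of 3 members each and MRPL19 at 15. The class median was 250 covered nt, in a band (201 to 400 nt) where 86.5% of all transcripts lacked HITS-CLIP rows. The respiratory chain and ATP synthase had 69 of 90 (76.7%, 66.6 to 84.9), with NDUFS1 of complex I at 17, the carriers 20 of 25, with SLC25A13 at 16, and the matrix enzymes 19 of 28, with GLUD1 at 16 and the citrate synthase CS and the protease LONP1 at 15 each.

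Within the secretory pathway, transcripts without HITS-CLIP rows were a minority. Secreted liver proteins had 2 of 55 (3.64%, 0.443 to 12.5), the complement subunit C8A with 3 members and PROZ, or protein Z, with 2, and none of the 32 with at least 5 PAR-CLIP sites, which allows a share of up to 9.38% by a limit of 3 counts (exact two-sided interval to 10.9%). Lysosomal proteins had 3 of 39 (7.69%, 1.62 to 20.9), among them the channel MCOLN1 with 9 members and the sulfatase IDS with 2. Cargo receptors had 4 of 27 (14.8%, 4.19 to 33.7), namely ERGIC1 with 7, ERGIC2 and TMED6 with 4 each and, named after its values were seen, TMED8 with 1. Collagens, laminins and matrix proteins had 3 of 18, namely COL27A1 with 5, FBN3 with 2 and FBN1 with 1. The translocon, glycosylation and ER folding list had 14 of 62 (22.6%, 12.9 to 35.0), with the stress sensor kinase EIF2AK3 and the mannosidase-like EDEM1 at 11 members each and DERL1, of ER-associated degradation, at 10. These low shares rest on few transcripts: lysosomal proteins had 20.5% without the first HITS-CLIP AEG1 library in the rule, and without the second secreted liver proteins had 7.27% and collagens, laminins and matrix proteins 33.3%.

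Membrane proteins of other kinds were intermediate. Solute carriers outside mitochondria had 66 of 149 (44.3%, 36.2 to 52.7), with the inositol transporter SLC5A3 at 32 members, SLC35E1 at 27 and the zinc transporter SLC39A9 at 22. TMEM proteins had 74 of 111 (66.7%, 57.1 to 75.3), led by TMEM164 with 19, and ER lipid and sterol enzymes 22 of 47 (46.8%, 32.1 to 61.9), led by LPIN2 with 21 and SCAP, the sterol sensor that escorts SREBP, with 18. Golgi glycosyltransferases and sulfotransferases had 20 of 36, where NDST1, an enzyme of heparan sulfate synthesis, carried 38. ABC transporters had 12 of 22 (ABCD3, of peroxisomes, with 18) and ion pumps and V-ATPase subunits 19 of 35 (ATP6V1A with 28). Integrins, cadherins, plexins and tetraspanins had 17 of 42 (TSPAN14 with 17), and receptors and ligands of cell surface signalling 16 of 50, with the receptor BMPR2 at 13 and VEGFA at 12.

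Absence from HITS-CLIP was most frequent on sparsely covered transcripts. Of transcripts with up to 100 covered nt, 90.8% (1164 of 1282) lacked a HITS-CLIP row, against 36 of 180 with over 3200 covered nt. Up to 400 nt the intervals of nuclear and cytosolic and of endomembrane classes overlapped in each band. From 201 to 400 nt the share was 86.6% in nuclear and cytosolic classes (interval 81.2 to 91.0), 87.1% in mitochondrial classes (76.1 to 94.3) and 80.8% in endomembrane classes (69.9 to 89.1). From 401 nt on they did not overlap. From 801 to 1600 nt, 207 of 276 nuclear and cytosolic transcripts lacked HITS-CLIP rows, 15 of 25 mitochondrial ones and 42 of 165 (25.5%) endomembrane ones. From 1601 to 3200 nt the shares were 60.6% (51.7 to 69.0) in nuclear and cytosolic, 45.5% (16.7 to 76.6) in mitochondrial and 6.49% (3.16 to 11.6) in endomembrane classes. Over 3200 nt, 18 of 51 nuclear and cytosolic transcripts and 0 of 61 endomembrane transcripts, which allows up to 4.92% by a limit of 3 counts (exact two-sided interval to 5.87%), had no HITS-CLIP row. The transcripts in no class had 92.1% in the lowest band and 26.5% in the highest.

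**Figure D4:**
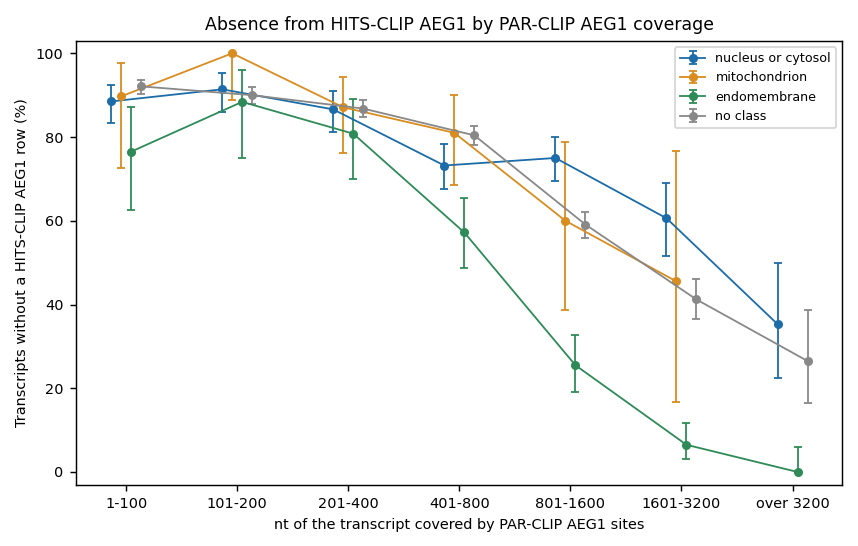
Percent of transcripts without a HITS-CLIP AEG1 row (y, exact binomial 95% intervals) by the nt of the transcript that PAR-CLIP AEG1 sites covered (x), for nuclear and cytosolic (blue), mitochondrial (orange), endomembrane (green) and unclassified (grey) transcripts. Each line ends lower than it begins, and from 801 nt upwards the endomembrane line lies lowest, at 25.5%, 6.49% and 0%.

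Among transcripts with at least 5 PAR-CLIP sites under 300 nt, 66.0% had no HITS-CLIP row, with 76.5% in nuclear and cytosolic, 79.5% in mitochondrial and 30.3% in endomembrane classes. The classes moved by different amounts under this limit. ABC transporters had 3 of 13 (23.1%) and integrins, cadherins, plexins and tetraspanins 6 of 30, while ubiquitin-specific proteases had 21 of 22 (95.5%) and mitochondrial ribosomal proteins 23 of 23. The ZNF class shrank to 18 transcripts, of which 15 (83.3%) lacked HITS-CLIP rows.

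Along the transcript the members were spread from end to end, without a concentration at the 5′ end. Position is the midpoint of a site divided by the furthest site end found on that transcript in any library, because transcript lengths, coding boundaries and UTRs were not used here. By construction this sets the last site of each transcript near 1, and the only site of a transcript always there. Over all members the median position was 0.557 (interval 0.552 to 0.562), against 0.526 (0.518 to 0.532) on transcripts with HITS-CLIP rows, and the last 10% of the length held 20.3% and 14.2% of sites. On transcripts with at least 5 sites the medians were 0.513 (0.507 to 0.518) and 0.517 (0.509 to 0.524), and with at least 10 sites 0.489 (0.483 to 0.496) and 0.50 (0.493 to 0.508). The sign of the difference thus changed with the number of sites per transcript, and at both limits the intervals overlapped. They treat sites of 1 transcript as independent, which these are not.

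On the 1222 member transcripts with at least 10 sites, the 5′-most 10% of the length held 7.11% of the 19365 members. Each of the next 4 stretches of 10% held 10.6 to 11.3%, the following 4 held 10.1% down to 8.53%, and the last held 12.5%. The 905 transcripts with HITS-CLIP rows had 7.58% in the first stretch and 11.8% in the last. Both sets thus had least at the 5′ end.

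**Figure D5:**
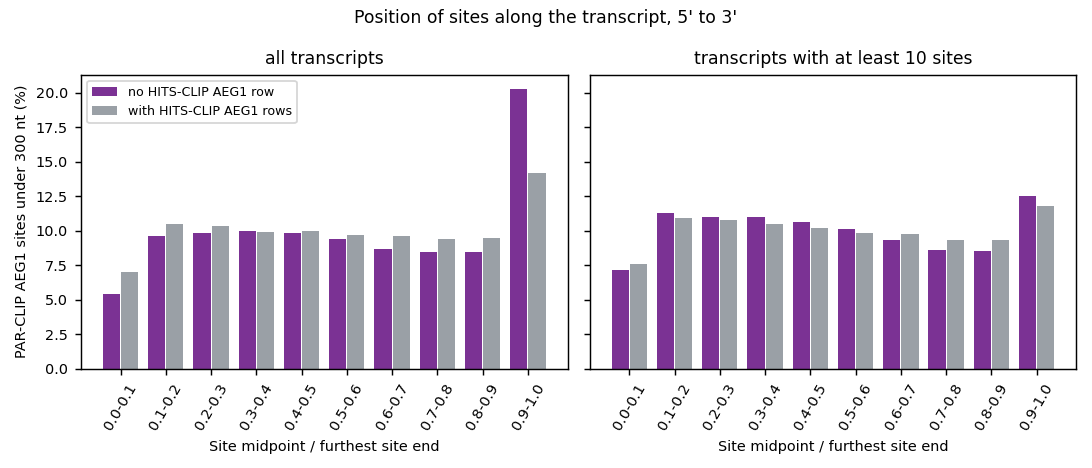
Percent of PAR-CLIP AEG1 sites under 300 nt (y) by site midpoint divided by the furthest site end of the transcript (x, 5′ to 3′), for transcripts without (purple) and with (grey) HITS-CLIP AEG1 rows. On all transcripts (left) the last bar is 20.3% and 14.2%, and on transcripts with at least 10 sites (right) it is 12.5% and 11.8%.

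Few members touched the beginning of a transcript. A first site that starts within 100 nt of the first base was found on 15.6% of member transcripts with at least 5 sites (442 of 2825), against 25.5% of transcripts with HITS-CLIP rows, and the median first site started at nt 271 and nt 200. The highest-scoring site had a median position of 0.455 on member transcripts with at least 5 sites and 0.441 on the others, slightly 5′ of the middle in both. Where sites tied for the highest score, the 5′-most was taken, which draws these medians toward the 5′ end. The size of that effect was not tested. The median gap between neighbouring sites was 90 nt and 49 nt, and the median share of the length covered 28.5% and 52.2%. Sites per kb of measured length were 3.68 and 4.38, closer between the sets than the share covered was. The counts and gaps took only sites under the width limit of the members, whereas the length covered took sites of any width. Sites beyond that limit lay on 2.82% of all member transcripts and 32.8% of all transcripts with HITS-CLIP rows. Number and length were thus not measured on the same sites, and the part of the wider sites in this contrast was not tested.

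Most class medians lay near the middle. On transcripts with at least 5 sites, and among classes with at least 150 members there, the median position was lowest at 0.428 for protein phosphatase subunits (213 members), 0.431 for RAB, ARF and ARL GTPases (207) and 0.462 for Mediator subunits (151), and highest at 0.566 for proteasome subunits (234), 0.569 for DNA replication and repair (541) and 0.598 for ion pumps and V-ATPase subunits (158). Nuclear and cytosolic classes together stood at 0.509, mitochondrial classes at 0.536 and endomembrane classes at 0.493.

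For a few genes the genomic span is hardly longer than the measured length and so bounds the transcript. Of the member transcripts with at least 5 sites, 14 belong to genes whose span is at most 1.2 times the furthest site end. On them the 135 members had a median position of 0.493 relative to the furthest site and of 0.473 relative to the gene span. ARF6, a small GTPase of endocytosis, carried 12 members up to nt 3913 of a span of 3973 nt, the highest at nt 540 to 777. RRAGA, a GTPase that signals amino acids to mTORC1, carried 10 up to nt 1563 of 1599 nt, the highest at nt 1291 to 1480. SEPHS2, which makes selenophosphate, carried 13 up to nt 2212 of 2244 nt, the highest at nt 643 to 761. These genes were picked after their values were seen.

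Background in the unirradiated controls was low on these transcripts. Over all transcripts with a PAR-CLIP AEG1 site under 300 nt, 1.6% had a site in at least 1 of the 3 controls, and among member transcripts 11 of 5955 (0.185%, interval 0.0922 to 0.330) against 117 of 2022 (5.79%, 4.81 to 6.89) with HITS-CLIP rows. The 11 became 21 without the second HITS-CLIP AEG1 library in the rule and 5 without the second HITS-CLIP control. The members were not chosen from the controls, but the rule removed every transcript with a HITS-CLIP AEG1 row. The difference may therefore be set in part by the selection itself. Member transcripts are also less covered, and neither part of the difference was tested. By control, 3 member transcripts had a site in the PAR-CLIP control, 2 in the first HITS-CLIP control and 6 in the second, each in 1 control alone.

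On 7 of the 11 the control site overlapped a member. On H2BC12, a histone H2B gene, the PAR-CLIP AEG1 site at nt 4 to 158 had a score of 12.36 and the PAR-CLIP control site at nt 7 to 60 one of 9.55. On MLF2 the AEG1 site at nt 986 to 1149 had 8.53 and the control site at nt 999 to 1068 had 5.13. On RAPGEF1, an exchange factor for Rap GTPases, the site at nt 5102 to 5177 had 6.04 in PAR-CLIP AEG1 and the control site at nt 5098 to 5145 had 6.04 too. On AKAP6, an anchoring protein of protein kinase A, the AEG1 site at nt 289 to 419 had 14.11, against 12.03 at nt 290 to 309 in the second HITS-CLIP control. The other overlaps were with HITS-CLIP control sites of 19 nt on NDUFV1 and MED13L and of 29 nt on CDC42BPB. Whether scores of different libraries share a scale is not stated, so no difference is drawn between them.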

How the data were processed

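Fragments crosslinked to tagged AEG-1 were sequenced from 6 libraries in single reads of 50 nt, per the labels' protocols. The submitters' processing notes name Bowtie without a version; reference build, site calling and use of controls are not given there. The deposited lists have no header and hold a RefSeq transcript, symbol, start, end and score per site. Values of the deposited score behave as log2 values, with a normalization that the authors' files do not state. The start and end that the authors deposited are transcript positions; starts were read as 0-based and are printed 1-based, and width is end minus start.

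Gene names follow RefSeq (GRCh38.p14), matched by accession for 5909 of the 5955 member transcripts, by symbol for 22 and by synonym for 18, and 6 kept the symbol of the file. A transcript may match several classes, and EIF2AK3, which also met the pattern for translation factors, was left out of the group totals. The members, the classes and the rule for named genes (most members overall and per class, overlap with controls, widest score span) were chosen with earlier results of these data known. Shares carry exact Clopper-Pearson 95% intervals, a count of 0 a limit of 3 counts, and medians the binomial interval of their ranks. No test was run: there is 1 PAR-CLIP AEG1 library, and sites are not replicates. A planned share of encoded proteins with a hydrophobic stretch was not made, since protein sequences were not used here, nor were site sequences. Selection and class counts were tested on simulated data. Python 3.11.15, pandas 2.3.3 and SciPy 1.17.1 were used. For 1 class and a few genes, values are not reported here.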

Additional observations from a re-analysis of the deposited data

How the results depend on the processing

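The number of members moved by less than 1.5 times with a width limit of 200 nt (36178), with no limit (37130) and with genes in place of transcripts (36920), and fell to 17413 with sites above the median PAR-CLIP AEG1 score alone, where scores of different transcripts share no scale. With at least 5 sites required, 2825 transcripts were left, by construction. The median position was 0.540 by site start, 0.635 with each transcript counted once and 0.513 on transcripts with at least 5 members; a lone site lies near 1 by construction, and the last setting holds none. With only 1 HITS-CLIP AEG1 library in the rule, members numbered 40137 to 41777, member transcripts 6280 to 6431 and the median position was 0.551 to 0.554. The share without HITS-CLIP rows was then 82.4 to 84.0% in nuclear and cytosolic, 85.2 to 90.3% in mitochondrial and 43.9 to 46.2% in endomembrane classes, and 21 to 24 of the 42 classes exceeded all transcripts. With at least 5 sites the endomembrane share was 30.3%. Member transcripts with a control site numbered 11, or 7 where it had to overlap a member, 5 to 9 without either HITS-CLIP control (5 without the second) and 13 to 21 without either HITS-CLIP AEG1 library (21 without the second); the cause was not tested. The alternatives for control sites and for classes by HITS-CLIP library were chosen after seeing the data. The planned division by furthest site end became the main measure, as no transcript lengths were used, and the alternatives for hydrophobic stretches were not run. No paired analysis was possible because no result comes from a test. The read depth is unknown, so absence from HITS-CLIP means that no site was listed, not that no RNA was bound.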

Other observations

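Within the list of ion pumps and V-ATPase subunits, the cytosolic and membrane parts of the V-ATPase, the proton pump of lysosomes, were split after the values were seen. All 8 cytosolic V1 subunits with PAR-CLIP sites lacked HITS-CLIP rows, from ATP6V1A with 28 members and ATP6V1C1 with 16 to ATP6V1F and ATP6V1G1 with 5 each. Of 9 membrane V0 subunits and accessory proteins 3 did (ATP6V0A2, ATP6V0D1 and ATP6V0E2), and ATP6V0D1 is a subunit without membrane spans. Of 18 transcripts of P-type pumps and their subunits 8 did, among them the copper pumps ATP7A and ATP7B. Over all transcripts with a PAR-CLIP AEG1 site under 300 nt, 74.7% lacked HITS-CLIP rows, and 66.0% of those with at least 5 such sites did. With so few subunits, the counts only describe these transcripts. This split was chosen on these libraries and has no test.

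Members also lay on transcripts with near-identical copies in the genome, where fragments may belong to another copy. GLUD2 carried 12 members, PGAM4 11 and PABPC3 14, each a processed copy of a widely expressed gene, and GOLGA8B carried 17, NPIPB3 18 and NPIPB5 17. Besides NBPF10 and NBPF14, 6 further NBPF transcripts of 5 genes were members, with 4 to 12 sites. Of the 5955 member transcripts, 15 now stand in the RefSeq table as pseudogenes and 5 as lncRNAs, among them AHSA2P with 8 members and SNHG32 with 4.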
